A study of Mus musculus with 6 samples.

Results

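The genes described here code for the 6 chains of type IV collagen, Col4a1 to Col4a6, and for the 2 collagens that end in an endostatin domain, Col15a1 and Col18a1. They were chosen by name, and a read counted for a gene when its deposited annotation equalled the gene symbol. These 8 genes were among 14765 gene annotations with reads. Of the 8, Col4a1, Col4a2, Col4a5, Col4a6 and Col18a1 had enough reads to enter the test over 11125 genes. Col4a3, Col4a4 and Col15a1 did not.

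Type IV collagen is the network-forming collagen of basement membranes, the thin sheets on which epithelia rest and which surround blood vessels, muscle and nerve. Its chains coil into triple helices of set composition: the Col4a1 and Col4a2 chains assemble with each other, the Col4a3, Col4a4 and Col4a5 chains form a helix found mainly in kidney, lung and eye, and the Col4a5 chain also assembles with the Col4a6 chain. The genes lie head to head in pairs, so that the genes of a pair are read in opposite directions from nearby starts. Collagens XV and XVIII are proteoglycans of basement membrane zones, and proteases release endostatin from the C-terminal end of collagen XVIII. In the mammary gland a basement membrane separates the epithelium from the stroma, and carcinoma cells must cross it to invade.

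The cells were Mvt1, a mouse mammary carcinoma cell line of strain FVB/N, derived from a mammary tumor of mice with MMTV-driven c-Myc and Vegf transgenes, which both groups share. Cells without CD24 on the surface (CD24-) and cells with it (CD24+) were sorted and their messenger RNA was sequenced from 3 plates of each group. No separate sorts or further cell lines were described, so the errors and p-values given here measure the spread between plates of 1 sorted population each. In RNA from many cells, a lower level in every cell and fewer expressing cells cannot be told apart.

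A library held 9046025 to 25692147 mapped reads, of which 71.8% to 74.3% were annotated to a gene. CD24+ replicate 1 was the shallowest, with 6491832 gene reads. Cd24a, the gene of the sorted marker, was 12.1, 11.5 and 6.99 CPM (counts per 1000000 gene reads of a library, scaled by the TMM method of edgeR) in CD24- replicates 1, 2 and 3 and 73.3, 85.5 and 72.5 CPM in CD24+ replicates 1, 2 and 3, so the labels and the marker went the same way. The chi-square per degree of freedom over genes was 1.75 between CD24- replicates 1 and 2, 10.2 and 11.9 between these and CD24- replicate 3, and 9.69 to 15.9 among the CD24+ libraries, so CD24- replicates 1 and 2 were the closest pair. CD24- replicate 3 had the lowest Cd24a, Col4a5, Col4a6 and Col18a1 levels, and the changes of the chains are also given without it. Cdh1 and Epcam, which define epithelial cells, had 2 and 6 reads in all 6 libraries. The luminal keratins Krt8 and Krt18, in contrast, averaged 1240 and 739 CPM in CD24- cells and 591 and 211 CPM in CD24+ cells. These keratin values are without TMM scaling.

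In GENCODE M21 (GRCm38), Col4a1 lies on the minus strand of chromosome 8 from 11198423 to 11312826 and Col4a2 on the plus strand from 11312805 to 11449287, so their annotated first exons overlap by 22 bases. Col4a4 (chromosome 1, 82448423 to 82586849, minus strand) and Col4a3 (82586921 to 82722059, plus strand) are 71 bases apart. Col4a6 (chromosome X, 141165403 to 141474076, minus strand) and Col4a5 (141475385 to 141689234, plus strand) have a gap of 1308 bases between them. Col15a1 (chromosome 4, 47208161 to 47313167, plus strand) and Col18a1 (chromosome 10, 77052178 to 77166548, minus strand) stand apart on different chromosomes. The deposited reads carry positions on the older build mm9, and on that build the nearest reads of Col4a1 and Col4a2 were 206 bases apart and those of Col4a5 and Col4a6 1319 bases apart.

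Start regions are shown for the Col4a1 and Col4a2 pair and the X-linked pair, whose genes had enough reads to test. Whether these regions bear on the levels of the genes was not tested. Each is 300 bases of RefSeq sequence on GRCm38.p6, from 250 bases before to 50 bases after an annotated start, written in the gene's direction. Capitals mark CCAAT, the core letters of a CCAAT box, and GGGCGG, those of a GC box, on either strand (ATTGG and CCGCCC on the other strand), and no match of these motifs overlapped another in the windows shown.
Col4a1, chr8:11312777-11313076, minus strand: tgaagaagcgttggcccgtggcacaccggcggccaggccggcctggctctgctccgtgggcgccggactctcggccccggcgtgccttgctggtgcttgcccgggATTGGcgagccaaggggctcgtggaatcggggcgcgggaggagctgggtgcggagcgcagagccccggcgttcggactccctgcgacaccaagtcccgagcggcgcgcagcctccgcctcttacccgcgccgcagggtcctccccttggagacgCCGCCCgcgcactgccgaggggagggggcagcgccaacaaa
Col4a2, chr8:11312555-11312854, plus strand: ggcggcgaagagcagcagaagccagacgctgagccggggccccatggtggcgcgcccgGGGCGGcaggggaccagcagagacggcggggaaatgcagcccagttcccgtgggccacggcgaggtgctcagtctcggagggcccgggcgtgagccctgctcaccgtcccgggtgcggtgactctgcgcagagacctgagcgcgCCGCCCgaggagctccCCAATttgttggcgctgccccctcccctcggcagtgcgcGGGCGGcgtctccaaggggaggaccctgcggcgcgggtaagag
Col4a6, chrX:141474027-141474326, minus strand: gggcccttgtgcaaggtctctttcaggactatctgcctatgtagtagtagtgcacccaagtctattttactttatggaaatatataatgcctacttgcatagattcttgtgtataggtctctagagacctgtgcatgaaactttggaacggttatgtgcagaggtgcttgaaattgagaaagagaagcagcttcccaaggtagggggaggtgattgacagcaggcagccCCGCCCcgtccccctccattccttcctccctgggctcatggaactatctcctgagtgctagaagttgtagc
Col4a5, chrX:141475169-141475468, plus strand: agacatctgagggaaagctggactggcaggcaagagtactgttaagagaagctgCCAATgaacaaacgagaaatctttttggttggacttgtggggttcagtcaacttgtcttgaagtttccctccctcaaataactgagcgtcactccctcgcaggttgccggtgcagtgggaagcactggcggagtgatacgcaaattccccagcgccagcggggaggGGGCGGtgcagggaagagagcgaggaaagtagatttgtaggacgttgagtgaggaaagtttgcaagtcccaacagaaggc

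The Col4a1 and Col4a2 windows share 78 bases, which hold 1 GGGCGG and no CCAAT. They were rich in G and C, at 74.0% and 73.7%, whereas the Col4a6 and Col4a5 windows had 48.3% and 52.7% and the median of all 32851 windows was 52.7%. The Col4a1 window held 1 CCAAT and 1 GGGCGG, the Col4a2 window 1 and 3, the Col4a5 window 1 of each, and the Col4a6 window 1 GGGCGG and no CCAAT. Of all windows, 37.4% held CCAAT and 35.7% held GGGCGG, so a match is a description of these letters only. The Col4a6 and Col4a5 windows do not overlap and are 842 bases apart.

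Each of the 5 tested chains was higher in CD24+ cells. An adjusted p below 0.05 from edgeR's quasi-likelihood test, Benjamini-Hochberg adjusted over all tested genes, is what "rose", "fell" and "called" stand for here. Of the 11125 tested genes 46.1% were called, 23.8% as higher and 22.3% as lower. The 3 CD24+ libraries lay above the 3 CD24- libraries for the 5 chains, and 57.3% of tested genes had no overlap between the groups in either direction. The median log2 fold change (CD24+ over CD24-) was 3.26 over the 5 chains and 0.02 over all tested genes. The chains split by size: Col4a1, Col4a2 and Col4a6 were above 3 on the log2 scale, as were 3.02% of tested genes that were called, and Col4a5 and Col18a1 were not.

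**Figure D1:**
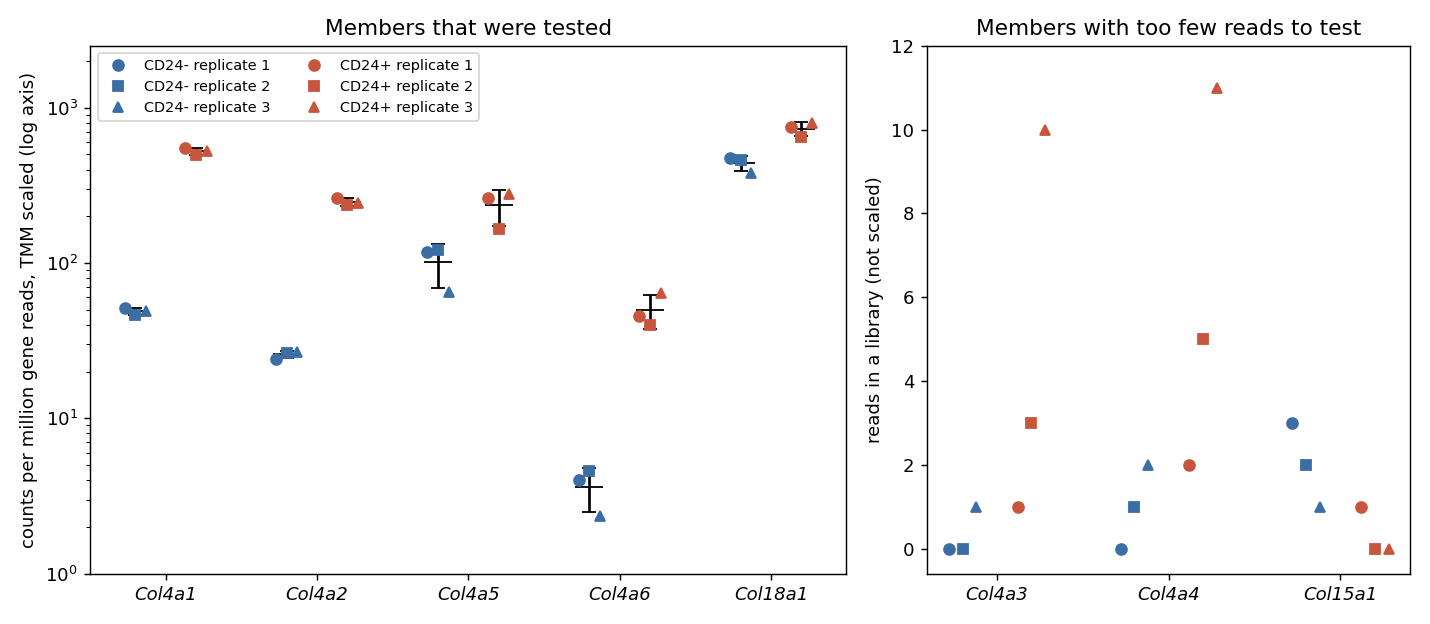
Levels of the collagen chains in each library. Left, CPM on a log axis for the 5 tested genes, with the horizontal bar at the mean and error bars of 1 SD (n = 3); right, unscaled read numbers of the 3 genes with too few reads to test. In the left panel the CD24+ points lie above the CD24- points for every gene, by 10.7-fold for Col4a1 and 1.66-fold for Col18a1.

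Col4a1, which codes for the most widespread type IV chain, had 51.02, 46.1 and 49.5 CPM in CD24- replicates 1, 2 and 3 and 553, 494 and 524 CPM in CD24+ replicates 1, 2 and 3. The libraries of each group lay close together and the groups were far apart. The log2 fold change was 3.42 with a standard error (SE) of 0.09, or 10.7-fold (edgeR, adjusted p = 6.94e-09). Without CD24- replicate 3 it was 3.43.

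Col4a2, whose chain assembles with that of Col4a1, had 24.2, 26.3 and 26.9 CPM in the CD24- libraries and 263, 237 and 244 CPM in the CD24+ libraries. No library stood apart from its group. The log2 fold change was 3.26 (SE 0.09, 9.59-fold, edgeR adjusted p = 7.77e-09), and 3.29 without CD24- replicate 3. The study showed Col4a1 and Col4a2 in a heat map drawn from these same libraries, so their direction here is not independent evidence.

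The ratio of the pair within a library does not depend on scaling. Col4a2 reads were 230, 278 and 239 beside 485, 487 and 439 Col4a1 reads in the CD24- libraries, and 1672, 4197 and 4655 beside 3516, 8753 and 10013 in the CD24+ libraries. Col4a2 thus made up 32.2%, 36.3% and 35.3% of the reads of the pair in CD24- cells and 32.2%, 32.4% and 31.7% in CD24+ cells. The shares overlapped between groups in CD24- replicate 1 and the CD24+ libraries, although both genes rose about 10-fold. The log2 ratio of Col4a2 to Col4a1 was -0.92 ± 0.14 in CD24- and -1.08 ± 0.02 in CD24+ cells (SD, n = 3 each). The difference of -0.16 had a 2-sided exact permutation p of 0.3, where 3 libraries against 3 cannot give less than 0.1. Leaving out 1 library at a time put the difference between -0.24 and -0.10. Counting each distinct read sequence once in place of every copy gave 0.23, the opposite sign, with a 2-sided exact permutation p of 0.1. Such counts level off as a gene gathers more reads. They kept 91.5% of Col4a1 and 94.5% of Col4a2 reads in CD24- cells against 43.4% and 59.9% in CD24+ cells. The reason for the change of sign was not tested.

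Col4a5 had 117, 122 and 64.7 CPM in the CD24- libraries and 262, 165 and 279 CPM in the CD24+ libraries. CD24- replicate 3 was low and CD24+ replicate 2 was low within their groups, and the nearest libraries of the groups, 122 and 165 CPM, did not overlap. The log2 fold change was 1.21 (SE 0.24, 2.31-fold, edgeR adjusted p = 0.00233). Without CD24- replicate 3 it was 0.97 (adjusted p = 0.00210), and without CD24+ replicate 2 it was 1.41.

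Col4a6, the head-to-head neighbor of Col4a5, had 4.0, 4.55 and 2.37 CPM in the CD24- libraries and 45.9, 40.0 and 64.01 CPM in the CD24+ libraries. CD24- replicate 3 was again the lowest and CD24+ replicate 3 the highest. Its log2 fold change of 3.77 (SE 0.24, 13.6-fold, edgeR adjusted p = 1.04e-06) was the largest of the 5 chains, and was 3.55 without CD24- replicate 3. This change rests on 38, 48 and 21 reads in the CD24- libraries against 292, 709 and 1222 in the CD24+ libraries. An estimate by median coverage, which adds a regularizer of 10 to every value, gave smaller log2 fold changes for the type IV chains: 1.98 for Col4a1, 1.43 for Col4a2, 0.62 for Col4a5 and 0.41 for Col4a6, each still called with limma.

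The X-linked pair, in contrast, had a different balance in the 2 groups. Col4a6 made up 3.30%, 3.59% and 3.53% of the reads of the pair in CD24- cells and 14.9%, 19.5% and 18.7% in CD24+ cells, so the groups did not overlap. The 95% exact binomial interval, which covers counting error only, reached at most 5.34% in a CD24- library and began at 13.4% or above in the CD24+ libraries. The log2 ratio of Col4a6 to Col4a5 was -4.80 ± 0.07 in CD24- and -2.23 ± 0.25 in CD24+ libraries (SD, n = 3 each), a difference of 2.57 or 5.94-fold. The 2-sided exact permutation p was 0.1, the smallest this design can give. Leaving out 1 library at a time kept the difference between 2.48 and 2.72.

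**Figure D2:**
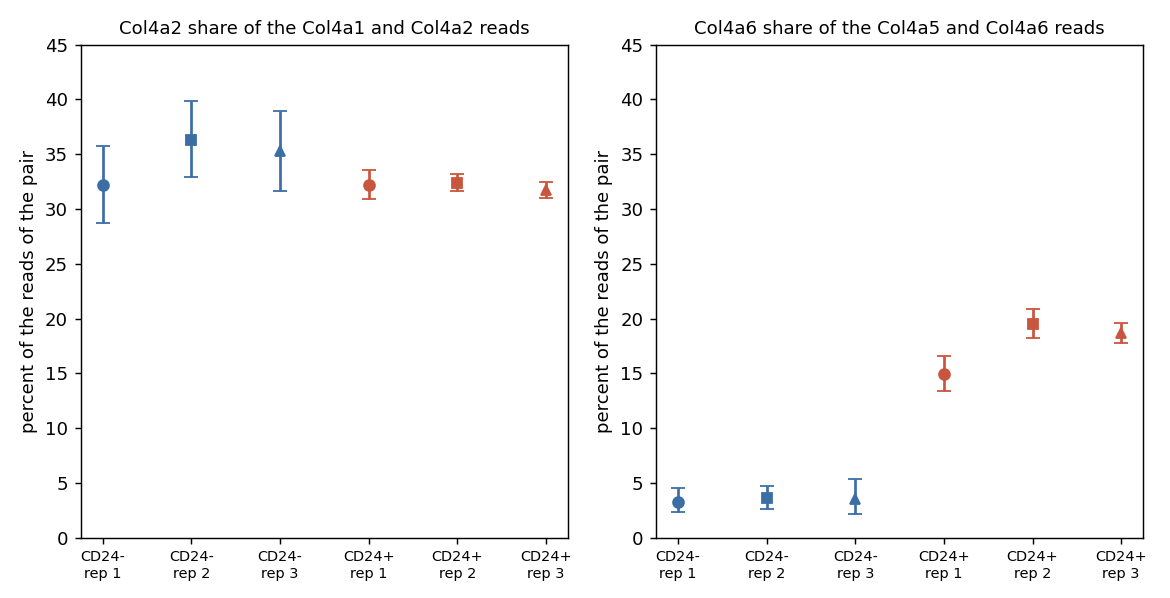
Share of the second gene in the reads of each head-to-head pair, by library, with 95% exact binomial intervals as error bars. Col4a2 stays between 31.7% and 36.3% of the Col4a1 and Col4a2 reads (left), whereas Col4a6 is 3.30% to 3.59% of the Col4a5 and Col4a6 reads in CD24- libraries and 14.9% to 19.5% in CD24+ libraries (right).

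The remaining pair, Col4a3 and Col4a4, was almost without reads. Col4a3 had 0, 0 and 1 reads in CD24- replicates 1, 2 and 3 and 1, 3 and 10 reads in CD24+ replicates 1, 2 and 3. Col4a4 had 0, 1 and 2 reads in the CD24- and 2, 5 and 11 reads in the CD24+ libraries. More of these reads came from CD24+ libraries, and 10 and 11 of them from CD24+ replicate 3 alone, the deepest library. Summed over a group and scaled to its gene reads, the ratio of CD24+ to CD24- was 9.26 for Col4a3 (95% exact interval 1.41 to 392) and 3.97 for Col4a4 (1.16 to 21.0), intervals that cover counting error only. With looser filters on low counts both could be tested and did not pass, with edgeR adjusted p-values of 0.0611 and 0.0631 for Col4a3 and 0.0855 and 0.0985 for Col4a4. For scale, 3 reads correspond to 0.157 to 0.462 CPM without TMM scaling. Only 10 of the 15 Col4a3 reads and 11 of the 21 Col4a4 reads matched an annotated transcript. Their ratio had no value, because libraries without reads were among the 6.

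Col15a1 had 3, 2 and 1 reads in the CD24- libraries and 1, 0 and 0 in the CD24+ libraries, and 1 of these 7 reads matched a transcript. The ratio of summed, scaled reads was 0.110 (95% exact interval 0.00240 to 0.909, counting error only), and in the test without a filter its adjusted p was 0.112 (edgeR). Col15a1 reads were thus at or under 3 in every library.

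Col18a1, the source of endostatin, had 471, 462 and 383 CPM in the CD24- libraries and 751, 648 and 792 CPM in the CD24+ libraries. CD24- replicate 3 was the lowest library and the groups did not overlap. The log2 fold change was 0.73 (SE 0.11, 1.66-fold, edgeR adjusted p = 3.20e-04), and 0.65 without CD24- replicate 3. Counting each distinct sequence once ended the call, with 0.33 on the log2 scale and an adjusted p of 0.0889; these counts kept 53.1% of its reads in CD24- and 33.7% in CD24+ cells. Of its reads, 243 also matched transcripts of Srm and 50 those of Slc19a1, among 44131 in all.

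Col18a1 has alternative starts. In GENCODE M21 a transcript of 5063 bases starts upstream, at 77166548, and transcripts of 5595 and 4791 bases start downstream, at 77113946 and 77113705, the nearer of them 52602 bases away. The RefSeq start regions are shown because nearly all reads that tell these transcripts apart came from the upstream one.
Col18a1 upstream start, chr10:77166481-77166780, minus strand: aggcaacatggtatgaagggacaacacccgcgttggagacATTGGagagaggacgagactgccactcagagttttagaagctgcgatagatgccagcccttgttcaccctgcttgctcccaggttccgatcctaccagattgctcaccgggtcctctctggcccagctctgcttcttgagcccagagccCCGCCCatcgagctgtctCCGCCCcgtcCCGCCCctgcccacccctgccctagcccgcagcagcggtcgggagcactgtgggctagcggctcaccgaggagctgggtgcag
Col18a1 downstream start, chr10:77113656-77113955, minus strand: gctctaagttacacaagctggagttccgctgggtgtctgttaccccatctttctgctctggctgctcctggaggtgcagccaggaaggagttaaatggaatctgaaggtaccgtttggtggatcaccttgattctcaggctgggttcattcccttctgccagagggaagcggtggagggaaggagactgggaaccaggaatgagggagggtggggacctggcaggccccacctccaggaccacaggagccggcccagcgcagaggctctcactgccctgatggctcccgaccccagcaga

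The upstream window held 1 CCAAT and 3 GGGCGG, and the downstream window neither motif. The first 177 windows of 47 bases of the upstream transcript are absent from the others and took 53, 59 and 53 reads in CD24- replicates 1, 2 and 3 and 79, 168 and 233 reads in CD24+ replicates 1, 2 and 3. The 1768 windows at the 5′ end of the downstream transcripts took 1, 0 and 0 reads in the CD24- and 4, 3 and 10 reads in the CD24+ libraries. Scaled to the length of these windows and to the gene reads of a library (RPKM), the upstream 5′ end was at 32.5 ± 1.02 RPKM in CD24- and 63.7 ± 8.90 in the CD24+ libraries (mean ± SD, n = 3), which is a ratio of 1.96 without overlap (2-sided exact permutation p = 0.1, the smallest possible). The downstream 5′ end was at 0.0201 ± 0.0348 and 0.247 ± 0.134 RPKM. The upstream start thus gave at least 95.2% of the reads that distinguish the starts in each library, in spite of its shorter stretch.

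Levels can be compared between genes only per length of transcript. RPKM here is the CPM (without TMM scaling) of reads matching the transcript per kb of it. Reads over exon junctions were lost in mapping, while the length includes their positions. The levels are thus understated by a share that can differ between genes, which was not corrected. On the longest coding transcript, the order in CD24- cells was Col18a1 at 60.1 ± 8.07, Col4a5 at 14.6 ± 4.90, Col4a1 at 7.40 ± 0.33, Col4a2 at 3.88 ± 0.14 and Col4a6 at 0.50 ± 0.20 RPKM (SD, n = 3), and no neighbors in this order overlapped. In CD24+ cells it was Col18a1 at 98.4 ± 10.6, Col4a1 at 78.3 ± 4.27, Col4a2 at 37.6 ± 1.99, Col4a5 at 34.2 ± 9.23 and Col4a6 at 6.76 ± 1.77. There the ranges of Col4a2 and Col4a5 overlapped and those of the other neighbors did not. Col4a3, Col4a4 and Col15a1 were below 0.05 in every library. For Col18a1 the longest transcript is a downstream one whose 5′ end carried almost no reads. On the upstream transcript, chosen after the positions of the reads were seen, its level was 82.8 ± 10.97 in CD24- and 139 ± 15.1 in CD24+ cells, which left it first in both orders.

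Taken over the 6 type IV genes, the summed RPKM was 26.4 ± 5.00 in CD24- and 157 ± 15.98 in CD24+ cells, a 5.95-fold difference. The makeup also differed between the groups, as a description of the levels above. Col4a5 was 54.2% ± 9.32 of the sum in CD24- cells (SD, n = 3), with Col4a1 at 28.9% ± 6.22, Col4a2 at 15.2% ± 3.66 and Col4a6 at 1.83% ± 0.46. In CD24+ cells Col4a1 was 50.1% ± 2.88, Col4a2 24.1% ± 1.64, Col4a5 21.6% ± 3.94 and Col4a6 4.29% ± 0.85. Col4a1 led in each CD24+ library and Col4a5 in each CD24- library.

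**Figure D3:**
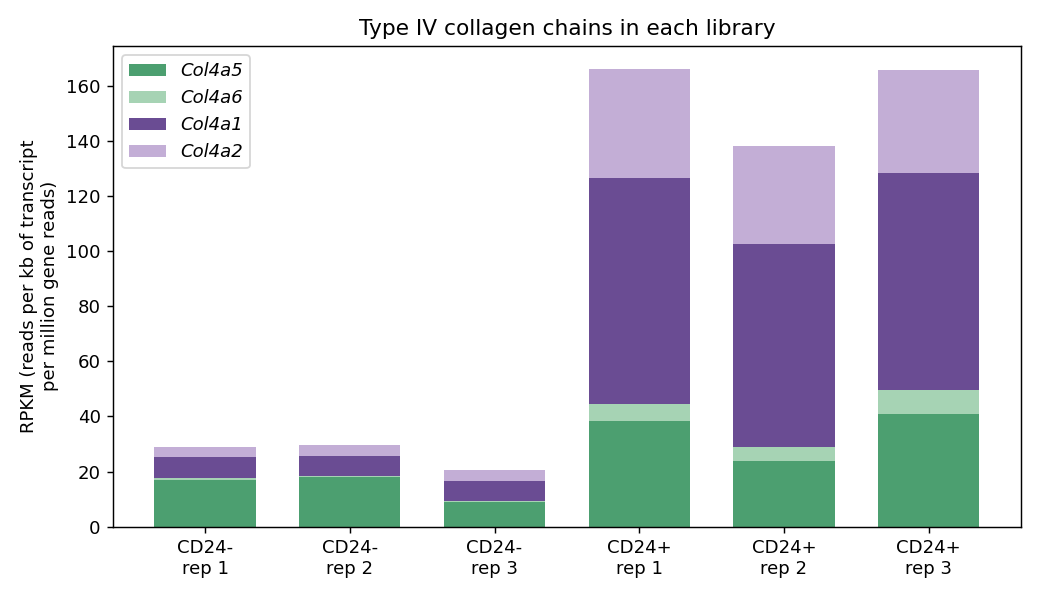
Type IV collagen levels in each library, stacked by gene, as RPKM on the longest coding transcript. The bars sum to 20.6 to 29.5 in CD24- libraries, where Col4a5 is the tallest segment, and to 138 to 166 in CD24+ libraries, where Col4a1 is.

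The type IV chains are alike in build. Translated from the reference transcripts, the 6 type IV chains have 1669 to 1707 residues, with 425 to 444 Gly-X-Y triplets, the repeat of the collagen helix, in 22 to 27 runs, and 227 to 233 residues after the last run, the C-terminal domain through which chains find their partners. Col18a1 and Col15a1 have 169 and 114 triplets in 14 and 11 runs and longer C-terminal ends of 315 and 256 residues. Reads lay along the whole of Col4a1, Col4a2 and Col4a5 (the plot of reads along the transcripts), with the mean position at 54.8%, 58.3% and 55.5% of the length in CD24- cells and 55.1%, 59.0% and 55.7% in CD24+ cells. For Col4a6 it was 53.3% and 52.8%, with only 2.82% and 1.82% of reads in the last 10% of the transcript. These positions overlapped between the groups for each of these genes. Whether the rise was even along the transcripts was not tested. In the bins of the plot centred at bases 6249 and 6515, Col4a6 had no reads in either group. Only reads annotated to the gene enter here, and 247 other reads on Col4a6 transcripts carried no annotation. Where on Col4a6 those reads lay was not examined. The stretch that codes for the C-terminal domain held 14.0% ± 0.99 of Col4a1 reads in CD24- and 15.9% ± 0.74 in CD24+ cells, the only measure of read position, of 5 per gene, whose groups did not overlap. For Col18a1 the C-terminal stretch, which includes endostatin, held 33.1% ± 0.86 and 32.3% ± 1.09 (SD, n = 3 each), and the groups overlapped.

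**Figure D4:**
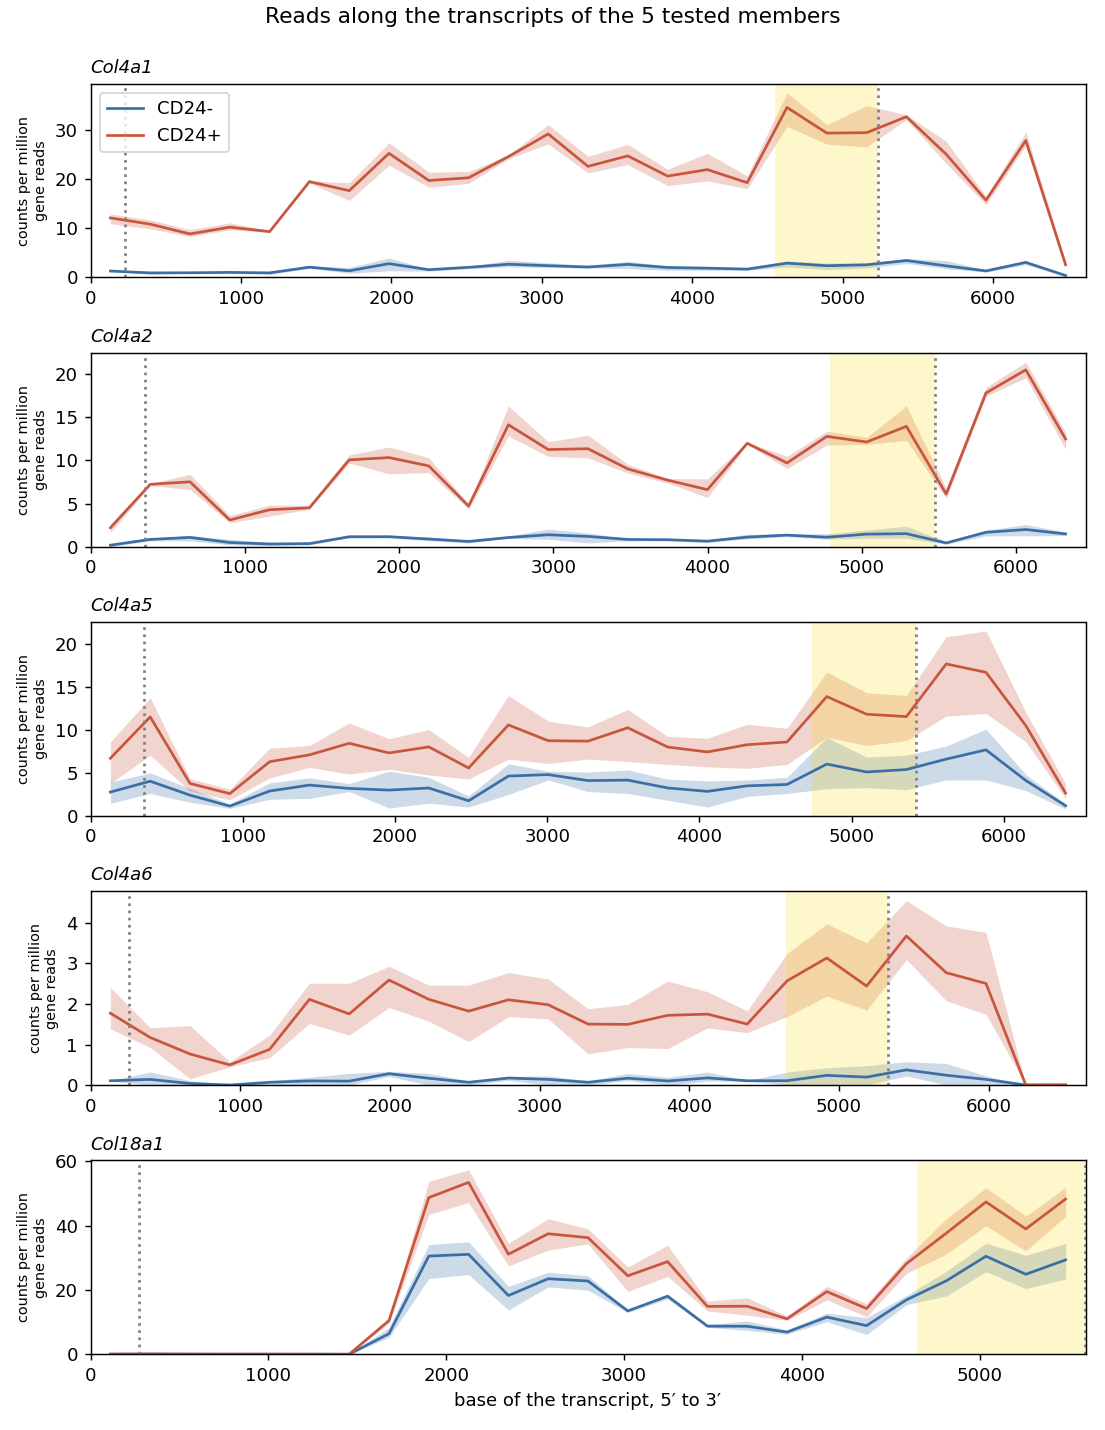
Reads along the longest coding transcript of each tested gene, in 25 bins, as CPM without TMM scaling. Lines are means and bands the range of the 3 libraries of a group, dotted lines mark the start and end of the coding sequence, and yellow marks the stretch for the C-terminal domain. The CD24+ line lies above the CD24- line along Col4a1, and the first part of Col18a1 has almost no reads in either group.

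Of the reads assigned to a gene, 98.8% matched a transcript for Col4a1, 97.6% for Col4a2, 94.3% for Col4a5, 89.8% for Col4a6 and 95.4% for Col18a1. Reads on a member's transcripts that carried another annotation or none numbered 708 for Col4a2 (6.05%), 434 of them as a SINE repeat. They numbered 248 for Col4a6 (10.6%), but at most 14 for Col4a1, Col4a5 and Col18a1. Of 24 reads on Col4a4 transcripts, 13 (54.2%) were of this kind, and these are not in the Col4a4 read numbers above. Of the reads matching transcripts, 49.1% to 51.3% lay in the sense direction for the 5 tested genes, so the counts carry no strand and cannot separate overlapping genes.

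The likeness of 2 genes was measured over the 6 libraries, and a distance of this kind is set mostly by the difference between the groups, so near ranks describe like fold changes. By the Euclidean distance between log2 CPM values centred on each gene's mean over the 6 libraries, Col4a2 ranked 9th of 9334 genes from Col4a1, at a distance of 0.281, and Col4a1 5th from Col4a2. Col4a6 ranked 124th from Col4a1, Col4a5 432nd and Col18a1 724th. Between Col4a5 and Col4a6 the distance was 3.10, which put Col4a6 9022nd from Col4a5 and Col4a5 372nd from Col4a6. The genes nearest to Col4a1 were Dmrta2, Crip2, Sdc2, Nes and Fkbp10, at distances of 0.101 to 0.222 and log2 fold changes of 3.38 to 3.54 (0.32 to 1.67 by median coverage). Sdc2 codes for a cell surface heparan sulfate proteoglycan, Nes for the intermediate filament nestin and Fkbp10 for a prolyl isomerase that acts on collagen.

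Type IV collagen is also made by vascular and stromal cells, so their markers are given beside these results. The CPM values of the markers and of their lists are without TMM scaling. Of 7 smooth muscle and pericyte markers 2 had enough reads, Acta2 and Pdgfrb, and both rose, by 3.87 and 3.79 on the log2 scale. The 7 summed to 4.50 to 6.71 CPM in CD24- and 56.5 to 91.1 CPM in CD24+ libraries, while Myh11, Cnn1, Rgs5 and Cspg4 had at most 6 reads in all. Des, the last of the 7, had 50 reads, too few to be tested, with means of 0.169 CPM in CD24- and 1.18 CPM in CD24+ cells. Of 6 fibroblast markers Pdgfra and Dcn were tested and rose by 0.87 and 4.71, and the list summed to 4.39 to 8.92 and 10.5 to 15.2 CPM. The Dcn change rests on 92 reads in all, with means of 0.0675 CPM in CD24- and 2.03 CPM in CD24+ cells. Of 7 endothelial markers Cdh5 fell, the list summing to 4.91 to 5.94 and 1.62 to 3.08 CPM, with 9 reads of Pecam1 in all. Cdh5 had 62 reads in all, with means of 1.86 CPM in CD24- and 0.244 CPM in CD24+ cells. Of 7 leukocyte markers Cd68 and Itgam fell, the list summing to 46.8 to 81.9 and 7.32 to 9.24 CPM, with 2 reads of Ptprc in all. Itgam had 113 reads in all, with means of 3.87 CPM in CD24- and 0.0175 CPM in CD24+ cells. Of 6 basal and myoepithelial markers 1 was tested, Mylk, which did not pass and made up most of the list's sum of 50.3 to 58.1 and 38.2 to 49.1 CPM. Trp63, with 54 reads too few to be tested, had means of 0.0959 CPM in CD24- and 1.15 CPM in CD24+ cells, and Krt5 and Krt14 had at most 3 reads in all. The 3 tested luminal markers fell, the list summing to 1846 to 2064 and 756 to 884 CPM. The part of other cells in the collagen levels was not tested.

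Genes of basement membranes, collagen handling, receptors and proteases were read in 6 lists written from general knowledge, with 100 genes in all. Earlier results of these data were known when the lists were chosen, so the lists were not blind to the data. Some of the listed genes, such as Ddr2 and Itga6, bind other collagens or laminin. Of the 76 that were tested, 34 were higher and 15 lower in CD24+ cells, or 64.5% called beside 46.1% of all tested genes. With each distinct sequence counted once, 21 were higher and 13 lower of 75 tested, or 45.3% called beside 33.4% of all genes tested that way. By median coverage 22 were higher and 10 lower of 60, or 53.3% beside 34%. As for the chains, the latter estimate gave smaller log2 fold changes than those printed below: 0.75 for Nid1, 0.33 for Nid2, -1.22 for Lamb3, -0.20 for Npnt, 1.38 for Fkbp10, 0.66 for Lox, -1.18 for Itga6 and -2.44 for Mmp3, each still called. It gave no value for Loxl2, Itga10 and Ctsl. List medians ran from -0.09 to 0.46, against 3.26 for the chains. The counts of each list are to be read against the 23.8% of all tested genes that were higher and the 22.3% that were lower.

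**Figure D5:**
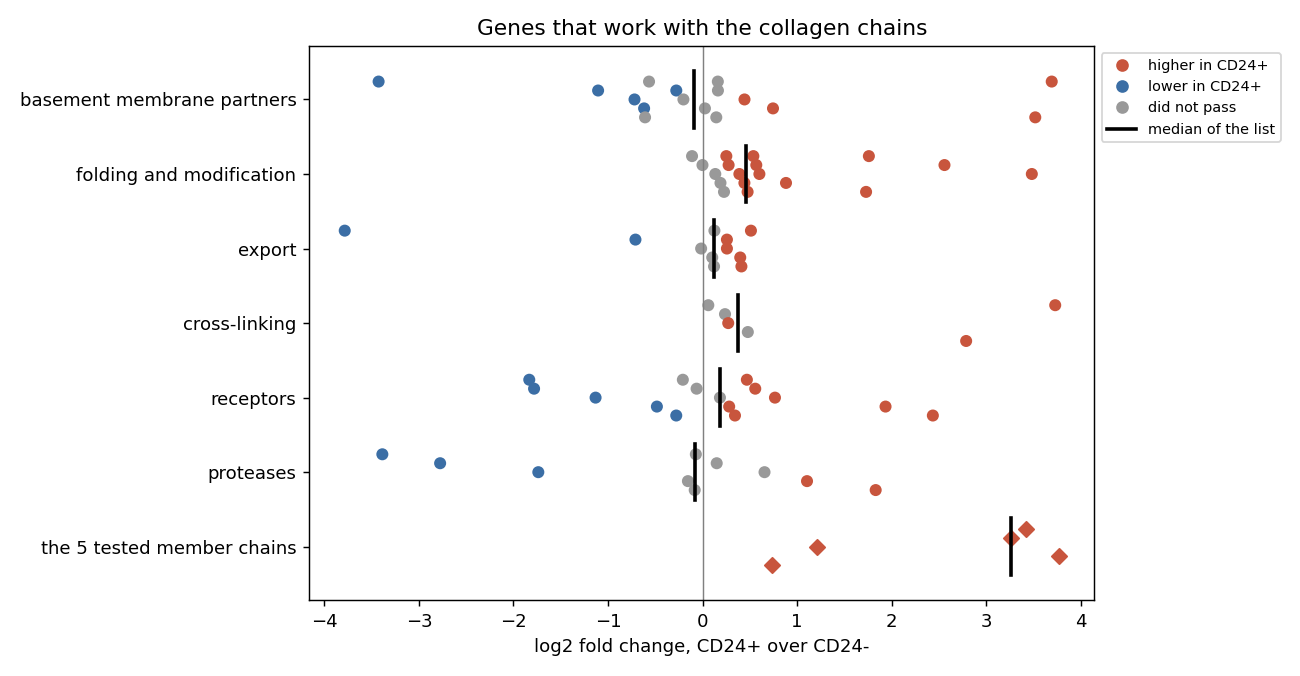
Log2 fold change (CD24+ over CD24-) of each tested gene in 6 lists of basement membrane, collagen handling, receptor and protease genes. The 5 tested chains are in the bottom row as diamonds. Red points are higher, blue points lower and grey points did not pass; vertical bars are list medians, 3.26 for the chains and 0.46 for folding and modification, the highest of the 6 lists.

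Of 26 basement membrane partners, 16 were tested, 4 rose, 5 fell and 7 did not pass, with a median of -0.09; the 25% that rose lay near the share over all tested genes. Nid1, a nidogen that links laminin to type IV collagen, rose from 7.05 ± 0.58 to 81.3 ± 3.39 CPM (SD, n = 3 each), by 3.52 on the log2 scale (edgeR adjusted p = 1.08e-08). Nid2, the other nidogen, rose from 2.42 ± 1.23 to 31.3 ± 11.3 CPM, by 3.69. Lamb3, a chain of the epithelial laminin of hemidesmosomes, went from 138 ± 39.2 to 13.5 ± 4.07 CPM, a log2 fold change of -3.43. Npnt, an integrin ligand of basement membranes, had -1.10. Outside the rule for named genes and after their values were seen, Sparc (0.75) and Tinagl1 (0.44) are named as the others that rose, and Egfl7 (-0.72), Lamc1 (-0.62) and Lama5 (-0.28) as the others that fell. The libraries of the groups overlapped for Tinagl1 (edgeR adjusted p = 0.0403) and Egfl7 (edgeR adjusted p = 0.0413).

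Folding and modification was the list with the most members that rose: 13 of 18 tested genes, or 72.2% beside 23.8% of all tested genes, with none lower and a median of 0.46. Serpinh1, the chaperone of collagen triple helices, rose from 193 ± 12.7 to 653 ± 125 CPM (SD, n = 3 each), by 1.76 on the log2 scale (edgeR adjusted p = 2.93e-06). With each distinct sequence counted once, its log2 fold change was 0.77 (edgeR adjusted p = 0.0150). Fkbp10, already named as near Col4a1, rose from 5.91 ± 0.64 to 66.5 ± 6.38 CPM, by 3.48. The genes that did not pass included P4ha1 (0.13), a prolyl hydroxylase subunit, and Plod3 (0.00), a lysyl hydroxylase.

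Of 12 genes of collagen export, 11 were tested, 5 rose and 2 fell, with a median of 0.13. Sec24d, a coat protein of the vesicles that leave the endoplasmic reticulum, rose by 0.51. Sec13, another coat subunit, had 0.41 with an adjusted p of 0.0216 (edgeR), and was not called when CD24- replicate 1 (0.33) or 2 (0.34) or CD24+ replicate 1 (0.34) or 3 (0.42) was left out, nor when every distinct sequence counted as 1 read (0.19, adjusted p = 0.391). Klhl12, an adaptor that enlarges these vesicles for collagen, was lower, at -0.71. Chosen after their values were seen, Sec23a (0.40), Sec23b and Sar1a (both 0.26) also rose. Mia2 and Mia3 were chosen in the same way. Mia2 (-3.78) fell from 7.60 to 0.620 CPM on 243 reads in all. Mia3, which loads collagen into the vesicles, had -0.01 and did not pass.

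Among 7 cross-linking genes, 3 of 6 tested rose and none fell, with a median of 0.38. Lox, the lysyl oxidase, rose from 3.53 ± 0.56 to 46.4 ± 10.6 CPM (SD, n = 3 each), by 3.73 on the log2 scale (edgeR adjusted p = 3.96e-07). Loxl2 rose from 6.19 ± 3.21 to 43.7 ± 13.8 CPM, by 2.79. Pxdn, the peroxidase that forms the sulfilimine bonds between type IV collagen networks, went from 121 ± 8.46 to 146 ± 8.81 CPM, a log2 fold change of 0.27 with an adjusted p of 0.0240, and was not called without CD24- replicate 1 (0.29) or 3 (0.22) or CD24+ replicate 2 (0.22) or 3 (0.26). Its adjusted p was 0.0504 with the replicate number as a block and 0.0937, at a log2 fold change of 0.21, with each distinct sequence counted once.

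Receptors moved both ways, with 7 higher and 5 lower of 15 tested and a median of 0.18. Ddr2, a receptor tyrosine kinase for fibrillar collagens, rose from 59.4 ± 9.08 to 227 ± 24.7 CPM (SD, n = 3 each), by 1.94 on the log2 scale. Ddr1, its relative that also binds type IV collagen, had -0.48. Itga6, the laminin receptor subunit of hemidesmosomes, went from 233 ± 37.8 to 65.2 ± 9.21 CPM, a log2 fold change of -1.83. Itgb4, in the same list and named after its values were seen, was at a low level on 91 reads in all. It had 1.37 CPM in CD24- and 1.23 CPM in CD24+ cells and did not pass (-0.21, edgeR adjusted p = 0.605). Itga10 had 0.77 with an adjusted p of 0.0356 (edgeR). It kept its call among the leave-one-out fits only without CD24+ replicate 2, and had 0.41 without CD24+ replicate 3. On reads of 1 reference gene it was not called either (0.67, adjusted p = 0.0539). Named after their values were seen, Itga1 (2.44) and Itga2 (-1.78), the subunits of the main collagen-binding integrins, went in opposite directions. Both were at low levels. Itga1 went from 0.858 to 4.71 CPM on 229 reads in all, and Itga2 from 2.30 to 0.751 CPM on 95 reads. The study also showed Loxl2 and Ddr2 from these libraries, so they too are not independent evidence.

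Of 17 proteases that cut type IV collagen or release endostatin, 10 were tested, 2 rose and 3 fell, with a median of -0.08. The 20% that rose lay near the 23.8% of all tested genes that were higher, and 22.3% of all tested genes were lower. Mmp14, a membrane-bound matrix metalloproteinase, rose from 65.6 ± 7.62 to 141 ± 4.40 CPM (SD, n = 3 each), by 1.10 on the log2 scale (edgeR adjusted p = 8.01e-06), but was not called by median coverage (0.15, limma adjusted p = 0.0737). Mmp2, named after its values were seen, had 1.83, from 0.377 to 1.35 CPM on 71 reads in all. Mmp3, a stromelysin, went from 301 ± 50.6 to 29.3 ± 5.13 CPM, a log2 fold change of -3.39. Ctsl, a cathepsin that can release endostatin, went from 1249 ± 127 to 376 ± 76.3 CPM, or -1.74. With each distinct sequence counted once, Ctsl had -0.71 (edgeR adjusted p = 0.0249). Mmp15, also named after its values were seen, had -2.78, from 2.28 to 0.285 CPM on 79 reads in all.

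Lama3, Hspg2, Frem2, Tinag, Sec31a, Mmp7 and Elane, which the lists also hold, were not analysed here.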

How the data were processed

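Messenger RNA of CD24- and CD24+ Mvt1 cells, 3 plates each, was sequenced as 51-nt single-end reads. The authors trimmed 2 nt from each end, collapsed identical 47-nt reads, placed every remaining sequence on the genome (mm9, per the labels' processing notes) where it matched exactly, and assigned 1 annotation to it. The deposited values are raw read counts per sequence, not normalized or pooled. The tool used for mapping was not given in the sources used here, nor was the annotation release. Exact matching loses reads over exon junctions and variants, and reads shared with near-identical copies are uncertain.

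Counts were summed per gene annotation. Reads annotated to repeats or small RNA (8.03% to 10.6% of a library) and unannotated reads (16.9% to 20.2%) did not enter totals or tests. Of 14765 gene annotations, 12642 matched a current symbol and 1790 a synonym. No library repeats another, since the smallest chi-square per degree of freedom within a group was 1.75. The main test was the 2-sided quasi-likelihood test of edgeR 4.0.16 in R 4.3.3, after TMM scaling and filterByExpr, with a Benjamini-Hochberg adjusted threshold of 0.05; the scripts were tested on simulated data. Ratios within a library were compared by exact permutation tests (scipy 1.17.1). Reads were matched by exact sequence to GENCODE M21 transcripts. Of the 8 genes, 7 were matched to RefSeq start windows (not Col4a3).

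Alternatives were library totals without TMM, RLE size factors, DESeq2 1.42.0, at least 10 reads, no filter, each distinct sequence once, reads of 1 reference gene, a median coverage estimate after the study's steps (quantile normalization, regularizer of 10) tested with limma 3.58.1, the replicate number as a block and each library left out. The members, lists and tests were chosen with earlier results of these data known. Genes named besides the members are Cd24a, in each list up to 2 called genes with the largest rise and 2 with the largest fall at a mean log2 CPM of at least 3, Pxdn and Serpinh1, and the 5 genes nearest to Col4a1.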

Additional observations from a re-analysis of the deposited data

How the results depend on the processing

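The 5 tested chains were called under each of the 15 alternatives, except that Col18a1 was not called with each distinct sequence counted once. Their log2 fold changes ranged from 1.98 to 3.45 for Col4a1, 1.43 to 3.29 for Col4a2, 0.62 to 1.41 for Col4a5, 0.41 to 3.96 for Col4a6 and 0.33 to 0.81 for Col18a1. The lowest values of the type IV chains came from the median coverage estimate. It adds a regularizer of 10 to every value, which shrinks changes of low values, and it also differs in measure and normalization. Which of these lowered the values was not tested. With median coverage, 3162 of 9309 tested genes and 32 of 60 tested partner genes were called, against 5130 of 11125 and 49 of 76. Fewer genes were thus also tested. With each distinct sequence counted once, 3697 of 11078 genes (33.4%) and 34 of 75 partner genes (45.3%) were called. The Col4a2 to Col4a1 ratio changed sign with each distinct sequence counted once, to a difference of 0.23 (2-sided exact permutation p = 0.1). That count kept 43.4% of Col4a1 and 59.9% of Col4a2 reads in CD24+ cells, and the reason for the change of sign was not tested. The median log2 fold change over all genes stayed between -0.01 and 0.04. On the transcript of the upstream start, added after the data were seen, the Col18a1 level was 82.8 and 139 RPKM in CD24- and CD24+ cells, against 60.1 and 98.4.

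Leaving out 1 library at a time gave 4069 to 5358 called genes, 5 called chains in every fit, 37 to 46 partner genes, and differences of -0.24 to -0.10 for the Col4a2 to Col4a1 ratio and 2.48 to 2.72 for the Col4a6 to Col4a5 ratio. Same-numbered plates did not deviate together (correlations of 0.0143, -0.251 and -0.310). With 3 libraries per group this cannot exclude that they were handled together, and the labels state no pairing. With the replicate number as a block, 4493 genes, 5 chains and 42 partner genes were called. Col4a3, Col4a4 and Col15a1 had at most 18 reads in a group, entered the test only with looser filters and did not pass there (adjusted p = 0.0611 to 0.112), and counts of Col4a6 in CD24- cells were at most 48 reads.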

Other observations

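Besides Serpinh1 and Fkbp10, 11 genes of collagen folding and modification rose in CD24+ cells, all chosen for mention after their values were seen. The largest log2 fold changes among them were those of P3h3 (2.56), P4ha2 (1.73) and P3h2 (0.88). P3h3 was at a low level, from 0.605 to 3.57 CPM on 183 reads in all. P4ha2 codes for a catalytic subunit of the prolyl hydroxylase that stabilises the collagen helix, and P3h2 and P3h3 for members of the prolyl 3-hydroxylase family. P4hb (0.60), Plod1 (0.57), Plod2 (0.54), Fkbp14 (0.48), P3h1 (0.44), Colgalt1 (0.39), Hsp90b1 (0.28) and Crtap (0.25) rose less. Ppib (-0.11), Hspa5 (0.19) and Ero1l (0.23) did not pass. These genes act on many collagens, and which collagens they served in these cells was not tested.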
